A study of Mus musculus with 2 samples.

Results

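The genes described here are 40 genes of DNA replication and mitosis, led by the transcription factor Foxm1, and they were read from every probe set that the platform annotation gives to exactly 1 of them. This rule found 94 probe sets of 39 genes, out of 34945 probe sets of 18193 genes on each array. Ccnb1 had no such probe set and was not analysed here. The rule uses gene names and no measured values, although the list was drawn up with earlier results of these data known.

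The samples were mouse palates at E18.5, late in gestation, on the BALB/c background. Wild-type palate gave 1 array and palate labelled Myf5-/-:MyoD-/- gave the other, that is, a genotype null for both of the factors that commit cells to skeletal muscle. The series asks what skeletal muscle does for the developing palate. The labels do not say how many fetuses gave the RNA of an array, nor which part of each gene was removed. With 1 array per genotype no test was possible, so every difference is between these arrays, carries no p-value and could come from differences between animals, dissections or hybridisations. In bulk tissue, fewer dividing cells and less of these transcripts per cell cannot be told apart.

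A dividing cell copies its DNA in S phase and separates the copies in mitosis, and most of the transcripts that serve either step rise and fall with the cycle. Activating E2F factors turn on the replication genes at the end of G1. B-Myb and Foxm1 then act through the MuvB complex to turn on the mitotic genes. In a fetal palate, dividing cells are found in the mesenchyme, the bone-forming tissue, the oral epithelium and the muscle precursors, whereas muscle fibres have left the cycle. The summed RNA of the tissue therefore reads the dividing cells of all these sources at once.

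Values are MAS5 signals, which are linear brightness values per probe set, after both arrays were scaled to a common median of bright probe sets. Signals under a floor of 287 were set to it. A gene was read from its leading probe set, that with the highest mean log2 signal over both arrays, and it was taken as measured when either array reached 658. Ratios are log2 signals on the array labelled double null minus those in wild type. Different probe sets of the same gene differed in log2 ratio with a pooled SD of 0.51 (10187 probe sets of 4029 genes), which is the only measure of spread within these arrays. Of the 39 genes 38 were measured, and Tyms was not.

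The array labelled double null did not stand apart by its targeted genes. Myod1 had signals of 1937 in wild type and 1664 on the other array, and Myf5, which was not measured, had 517 and 532. Neither the labels nor the annotation say whether these probe sets lie in a removed part, so they do not check the label. Skeletal muscle markers were lower but present, with all 8 of 8 measured genes below a log2 ratio of 0 and summed signals of 156187 and 83238. Myog, myogenin, had 1856 and 934. Des, with 1255 and 434, reached the level of a measured gene in wild type only. The muscle precursor genes Pax3 and Pax7 had 1968 and 1880, and 633 and 816. Palatal mesenchyme was present on both arrays by Prrx1 (10070 and 8536), Twist1 (1164 and 1104) and Meox2 (1629 and 1652), while Osr2, at 379 and 45.6, was not measured. Col1a1, Col1a2 and Pdgfra of the same list were higher (36632 and 61099, 123637 and 147390, and 8137 and 8698), and the list summed to 181648 and 228525. Oral epithelium markers were lower in 6 of 7 genes, with sums of 113256 and 68385, and neuron markers higher in 5 of 5, with sums of 32970 and 85407. Of the erythroid markers, whose immature cells divide, 2 of 5 with a probe set were measured, both below 0. Of the others Hemgn had 338 and 533, Epb42 and Tspo2 were under the floor on both arrays, and all 5 together summed to 5394 and 4751. Leukocyte markers were below 0 in 3 of 6 (40973 and 36781) and endothelial markers in 4 of 5 (8266 and 6731). Of these, C1qa, Pecam1 and Tie1 reached the level of a measured gene in wild type only, and Emcn on the other array only. Of all measured genes 43.5% lay below 0. Osteoblast markers were below 0 in 2 of 3 measured, Sp7 (4199 and 3065) and Alpl (1664 and 1359). The list summed to 91937 and 94348, most of it from Ibsp (86074 and 89924). Of the Schwann cell markers only Sox10 was measured, with 2157 and 1562. The arrays also differed in sex-linked transcripts: the Y-linked gene Eif2s3y had 10.8 and 2795, and Xist had 33799 and 16954 in its leading probe set. The part of these differences in the values of the cell division genes was not tested.

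Most cell division genes, like most measured genes, had similar signals on both arrays, and Foxm1 alone passed 2-fold by its leading probe set. Within 1.5-fold were 31 of the 38 measured members, against 8434 of all 11239 measured genes. The median log2 ratio of the 38 measured members was -0.09, with quartiles of -0.40 and 0.11, beside a median of 0.07 and quartiles of -0.26 and 0.37 over all 11239 measured genes. The members' median was thus 0.16 below that of all genes. Of the 38 members 23 (60.5%) lay below 0, against 43.5% of all measured genes. Past 2-fold was 1 member, Foxm1, on the lower side (2.63% of members against 4.22% of all genes), and none was 2-fold higher, against 3.55% of all genes. The probe set with the highest signal on either array, an alternative chosen after seeing the data, gave 2 members 2-fold lower, Foxm1 and Tpx2, against 4.52% of all genes.

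**Figure D1:**
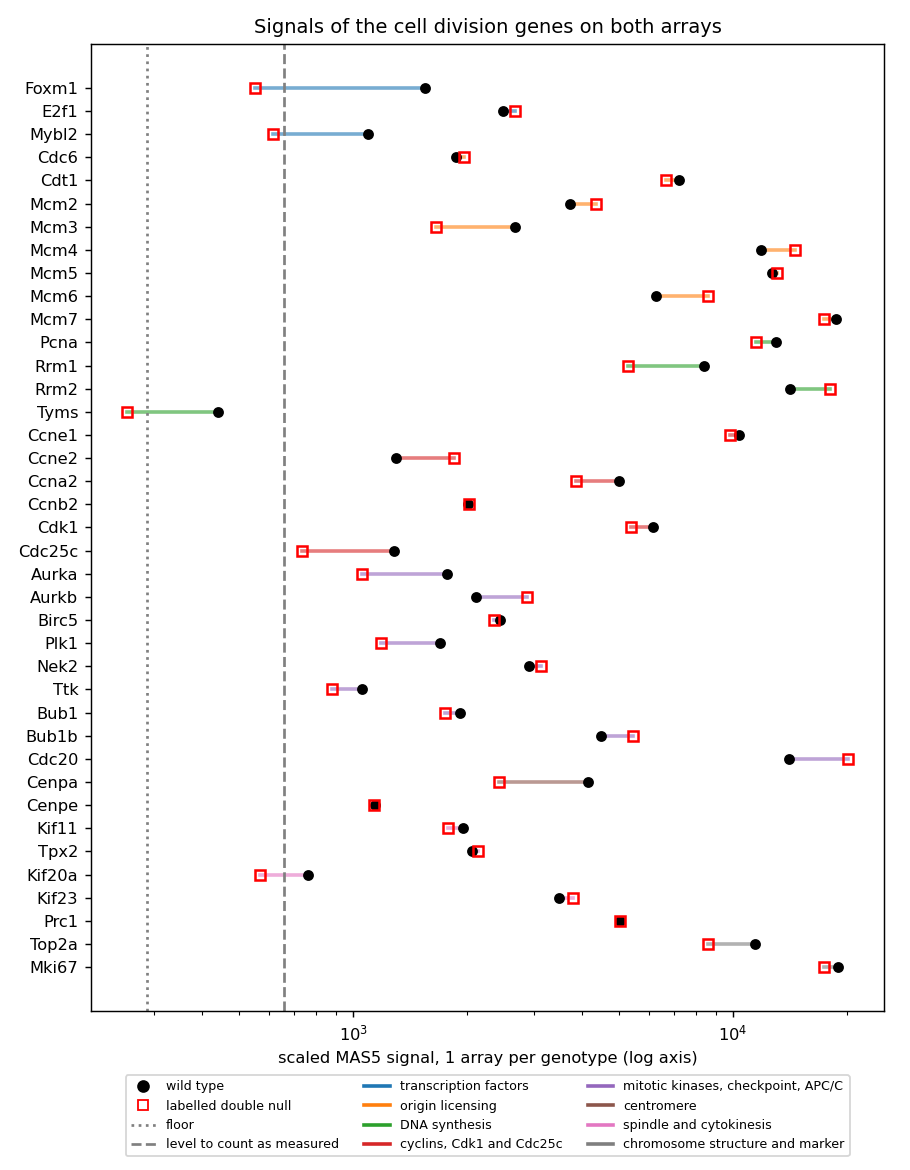
Scaled MAS5 signal (log axis) of each cell division gene on the wild-type array (black circles) and on the array labelled double null (red squares), by the leading probe set, 1 array each. Lines join both arrays of a gene and are coloured by its role. Foxm1 has the longest line, from 1544 to 552, and Tyms lies left of the level that counts as measured on both arrays.

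At a smaller size the members past the rule by their leading probe sets all lay on the lower side. At least 1.5-fold lower were 7 of 38 (18.4%), against a background of 11.7% of all measured genes, and none of 38 was at least 1.5-fold higher, against 13.3%. The 7 were Foxm1, Mybl2, Cdc25c, Cenpa, Aurka, Mcm3 and Rrm1. Foxm1 and Mybl2 reached the level of a measured gene in wild type only, so nothing is read from their part in the count. The 4 highest members were Cdc20 at a log2 ratio of 0.52, Ccne2 at 0.51, Mcm6 at 0.45 and Aurkb at 0.45. The mean over measured probe sets gave 5 members at least 1.5-fold lower (11.2% of all genes) and 0 higher (11.5%). Probe sets whose names carry no suffix gave 5 of 30 lower (11.8%) and 1 higher, Top2a (13.8%). Mcm3, one of the 7 above, then had a log2 ratio of 0.47. With a scaling that equalised the median signal of a reference gene list, the median of all genes moved to 0.73 and the 1.5-fold counts became 1 lower, against 2.13% of all genes, and 18 higher, against 63.0%. At 2-fold, 0 members were then lower, against 1.05% of all genes, and 4 higher (Aurkb, Ccne2, Cdc20 and Mcm6), against 27.1%, and 7 lay below 0, against 8.63%. The members' median was then 0.18 below that of all genes.

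**Figure D2:**
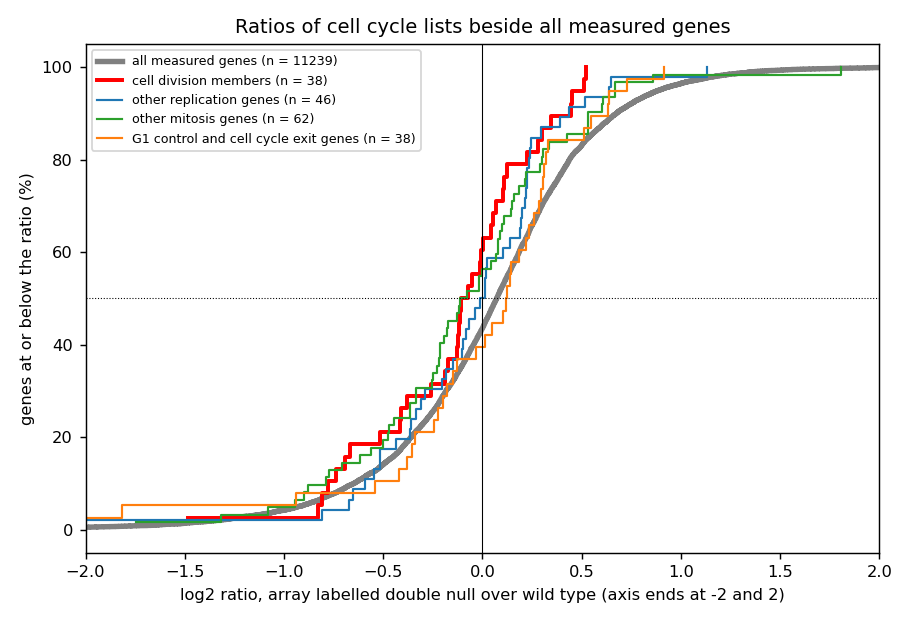
Share of genes (%) at or below each log2 ratio of the array labelled double null over wild type, for the 38 measured members (red), all 11239 measured genes (grey) and 3 further cell cycle lists. The red line runs left of the grey line through the middle of the range and ends at 0.52, where it reaches its highest member.

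Ratios on these arrays depended slightly on brightness. In 20 bins of mean log2 signal, the median ratio of all measured genes went from -0.29 in the dimmest bin to 0.24 in the brightest. The members spanned mean log2 signals from 9.36 to 14.1, which excludes both of those bins. With every gene set against the median of its own bin, 25 of 38 members were below 0, against 5619 of all 11239 genes, and the members' median was 0.14 below that of all genes. In the bin that holds Foxm1, 4.63% of genes were at least 2-fold lower.

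**Figure D3:**
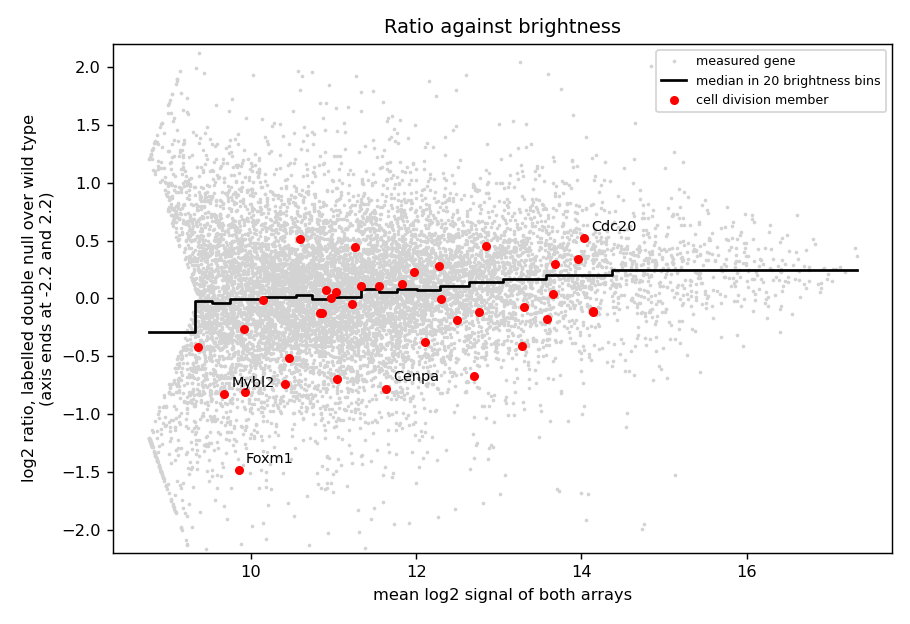
Log2 ratio of the array labelled double null over wild type against the mean log2 signal of both arrays, for all measured genes (grey) and the 38 cell division members (red), with the median in 20 brightness bins as a black line. Most members lie at or below the black line, and Foxm1 is the only member below -1.

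The genes share promoter letters that the choice of members did not use. RefSeq promoter windows of build GRCm38.p6, 300 bases long from 250 before to 50 after a gene's start, were matched by symbol for 32 of the 40 genes (34 windows). Ccna2, Ccne2, Aurkb, Cdc25c, Foxm1, Kif20a, Mcm4 and Tpx2 had none in the table. Searched on both strands were the cell cycle homology region (TTTGAA), which the MuvB complex binds, the CCAAT box (CCAAT), which NF-Y binds, and the E2F site (TTTCCCGC, TTTCGCGC, TTTGCCGC or TTTGGCGC). The E2F site was found in 7 of 34 member windows (20.6%), against 2.26% of all 32851 windows and 3.86% of windows of measured genes. The homology region was found in 15 windows (44.1%), against 17.9% and 11.9%. A CCAAT box was found in 27 windows (79.4%), against 37.4% and 37.0%, and 16 member windows held at least 2 of them (11.7% of all windows and 13.6% of those of measured genes). An E2F site and a CCAAT box overlapped in 1 member window. A match describes letters in the window and does not show that a factor binds there.

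The motifs differed by role. Of the 7 licensing genes with a window 6 held an E2F site and 1 the homology region, while of the 8 kinase, checkpoint and APC/C genes none held an E2F site and 5 the homology region. The 150 bases before the start are printed for Mcm6, a helicase subunit, for Cdk1, which holds all 3 motifs, for the spindle motor Kif11, and for Cenpa, one of the members that were 1.5-fold lower. They are written 5′ to 3′ on the gene's strand with motif matches in capitals (GRCm38.p6, chr1:128359706-128359855 minus strand, chr10:69352913-69353062 minus strand, chr19:37376232-37376381 plus strand and chr5:30666736-30666885 plus strand).
Mcm6: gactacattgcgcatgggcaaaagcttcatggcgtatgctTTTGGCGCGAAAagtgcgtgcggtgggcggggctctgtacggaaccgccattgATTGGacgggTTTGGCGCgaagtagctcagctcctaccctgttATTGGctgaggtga
Cdk1: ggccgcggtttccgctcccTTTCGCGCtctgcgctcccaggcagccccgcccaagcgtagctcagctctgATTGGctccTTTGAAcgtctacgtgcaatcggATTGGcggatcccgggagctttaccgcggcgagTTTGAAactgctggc
Kif11: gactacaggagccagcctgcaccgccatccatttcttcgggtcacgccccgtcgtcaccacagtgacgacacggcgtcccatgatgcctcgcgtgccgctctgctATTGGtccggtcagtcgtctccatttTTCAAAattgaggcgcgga
Cenpa: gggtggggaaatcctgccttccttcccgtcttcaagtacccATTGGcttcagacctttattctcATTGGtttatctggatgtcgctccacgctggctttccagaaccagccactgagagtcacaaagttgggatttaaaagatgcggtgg
In the Mcm6 sequence the E2F letters occur at -110 to -103, overlapping a copy on the other strand at -106 to -99, and again at -47 to -40. Cenpa has its homology region at 17 to 22 after the start, outside the printed stretch. Ratios were close with and without these letters. The median log2 ratio was -0.11 for the 7 measured genes with an E2F site and -0.07 for the 23 without, and -0.13 for the 14 with the homology region and -0.06 for the 16 without. For the CCAAT box it was -0.11 for the 24 with and -0.06 for the 6 without.

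Among the transcription factors, Foxm1 and Mybl2 were lower and E2f1 was not. Foxm1, the forkhead factor of the G2 and M phases, had 1544 in wild type and 552 on the other array, which is 2.79-fold lower, a log2 ratio of -1.48. Its second measured probe set had 752 and 228, the latter under the floor, so that it was at least 2.62-fold lower. Its other probe sets were under the floor on both arrays, with 250 and 238, and 53.2 and 61.8, and give no fold. Both measured Foxm1 probe sets thus lay at least 2-fold lower, as did all measured probe sets of 16 of the 4029 genes with several (0.397%). Both reached the level of a measured gene in wild type only, so nothing is read from that share. Mybl2 and Kif20a likewise reached it in wild type only, and their ratios carry the same limit. Foxm1 was at least 2-fold lower under all 14 alternatives of scaling, floor, filter and probe set but scaling on the reference genes' median signal, which gave a log2 ratio of -0.84. Mybl2, which encodes B-Myb, had 1092 and 615, a log2 ratio of -0.83 from 1 measured probe set. Its other probe set, which was not measured, went the other way, with 135, under the floor, and 416. E2f1, an activator of replication genes, had 2484 and 2667, and its ratios of 0.10 and 0.12 in both measured probe sets lay within the SD between probe sets.

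**Figure D4:**
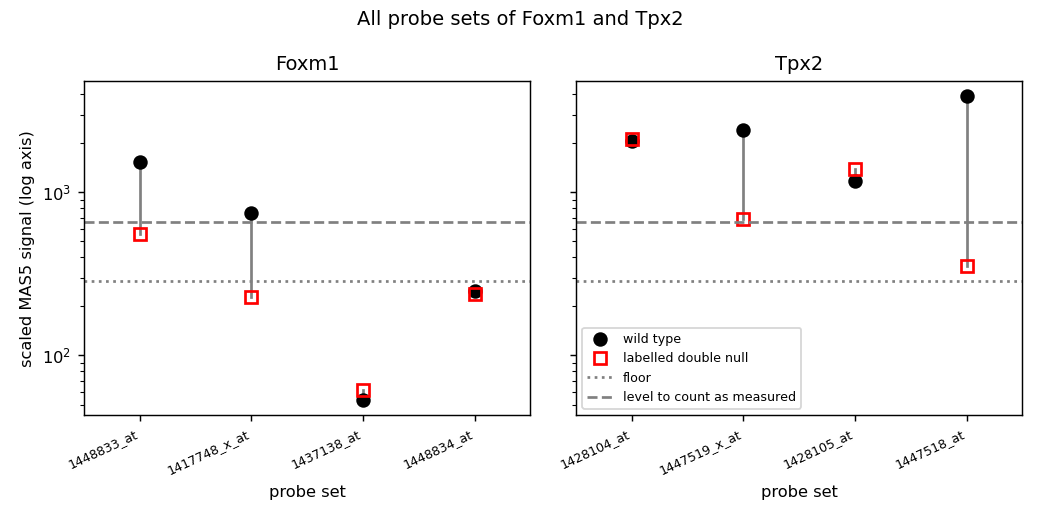
Scaled MAS5 signal (log axis) of every probe set of Foxm1 (left) and Tpx2 (right) on the wild-type array (black) and the array labelled double null (red), with the floor (dotted) and the level that counts as measured (dashed). Both Foxm1 probe sets that were measured in wild type are lower in red, whereas the Tpx2 probe sets divide into a pair near no difference and a pair far lower.

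Origin licensing genes, which load the replicative helicase onto DNA, had a median log2 ratio of 0.06 with 3 of 8 below 0. Cdc6 and Cdt1, the loading factors, had signals of 1870 and 1961, and of 7226 and 6679. The helicase subunits, which work as 1 ring, went both ways. Mcm4 had 11816 and 14555, Mcm6 6266 and 8575, Mcm2 3727 and 4356, and Mcm5 12667 and 13041. All of these were higher by less than 1.5-fold in their leading probe sets. Their other measured probe sets had log2 ratios of -0.12 for Mcm4, 0.09 for Mcm6, -0.006 for Mcm2 and -0.30 for Mcm5. Mcm7 had 18695 and 17337. Mcm3 was the licensing gene past 1.5-fold, with 2673 and 1654, a log2 ratio of -0.69. Of the other measured probe sets of Mcm3, 2 had -0.73 and -0.85 and 1 had 0.47. Mcm7 was also divided, with -0.11 and -0.05 in a pair of its probe sets and -0.68 and -0.76 in the other pair.

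The 3 measured DNA synthesis genes stayed within 1.6-fold. Pcna, the sliding clamp of the replicative polymerases, had 13001 and 11520. The subunits of ribonucleotide reductase, which makes deoxynucleotides, lay on opposite sides: Rrm1, the large subunit, had 8385 and 5276 (log2 ratio -0.67, and -0.39 in its other measured probe set), and Rrm2, the small subunit, had 14147 and 17965 (0.34, with 0.06 and -0.14 in the others). Tyms, thymidylate synthase, had 440 and 254 in the leading one of its 4 probe sets and was below the level of a measured gene in all of them.

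The cyclins and Cdk1 were within 1.5-fold by their leading probe sets. Ccne1 and Ccne2, the E cyclins that start S phase with Cdk2, had 10354 and 9833, and 1293 and 1842, so that Ccne2 had a log2 ratio of 0.51. A dimmer probe set of Ccne1 had 733 and 411 (-0.83). Ccna2, cyclin A of S phase and G2, had 5014 and 3850, with ratios of -0.38 and 0.03 in its measured probe sets. Ccnb2, a mitotic cyclin, had 2012 and 2014, and Cdk1, its kinase partner, 6146 and 5393. Their signals were nearly alike on both arrays. Cdc25c, the phosphatase that activates Cdk1 at mitotic entry, was lower, with 1284 and 734, a log2 ratio of -0.81, and -0.35 in its second probe set.

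Mitotic kinases, checkpoint proteins and the APC/C activator Cdc20 had a median of -0.05 with 5 of 9 below 0. Aurka, the kinase of spindle poles, had 1768 and 1059, a log2 ratio of -0.74. Plk1, which acts from mitotic entry to cytokinesis, had 1692 and 1184 (-0.51). Aurkb and Birc5, partners in the chromosomal passenger complex, had 2101 and 2863, and 2435 and 2348. Aurka and Aurkb thus lay on opposite sides of 0. Nek2, a kinase of centrosome separation, had 2900 and 3123. The spindle checkpoint genes were close on both arrays: Ttk had 1055 and 880, Bub1 1907 and 1748, and Bub1b 4487 and 5455. A second, dimmer probe set of Bub1 had a ratio of 0.88 and that of Bub1b -0.38. Cdc20 had 14000 and 20075, a log2 ratio of 0.52, but -0.27 in its other measured probe set.

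At the centromere, Cenpa and Cenpe differed from each other. Cenpa, the histone variant that marks the centromere, had 4159 and 2421, a log2 ratio of -0.78 from 1 measured probe set. Cenpe, a kinetochore motor, had 1142 and 1132, and its second probe set 1052 and 1054.

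Spindle and cytokinesis genes had a median of -0.01, and none of 5 passed 1.5-fold by its leading probe set. Kif11, the motor that separates spindle poles, had 1945 and 1777. The cytokinesis motors Kif20a and Kif23 had 760 and 569, and 3489 and 3800. Prc1, which bundles midzone microtubules, had 5051 and 5033, but its second probe set had 1835 and 3491 (log2 ratio 0.93). Tpx2, which activates Aurka on the spindle, gave 2054 and 2129 in its leading probe set and 1173 and 1382 in another, whereas the remaining pair gave 3889 and 355, and 2401 and 686, with log2 ratios of -3.45 and -1.81. The annotation does not say which part of the transcript each of these probe sets reads. Of the 4, the probe set with 3889 had the highest signal on a single array. By that probe set, or by the mean over all 4 (-1.24), Tpx2 would be a second member past 2-fold.

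The general markers of cycling cells were little different. Mki67, the Ki-67 antigen, had 18859 and 17359, a log2 ratio of -0.12. Top2a, the topoisomerase that untangles chromosomes, had 11427 and 8593, a log2 ratio of -0.41, while its other measured probe set, with 526 and 1049, was 1.99-fold higher.

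Grouped by phase, a grouping made after the values were seen, the 14 measured members of G1 and S phase (licensing, synthesis, E cyclins and E2f1) had a median of 0.06 with 6 below 0. The other 24 members had a median of -0.13 with 17 below 0. Of all measured genes 43.5% lay below 0. Foxm1, Mybl2 and Kif20a, among the 24, reached the level of a measured gene in wild type only. In the G1 and S group, Mcm2, Mcm4, Mcm5 and Rrm2 were above 0 in the leading probe set and below 0 in another, and Mcm3 the reverse. Nothing is therefore read from the difference between the groups.

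Probe sets of the same gene often lay on opposite sides of 0. Of 24 members with several measured probe sets 14 (58.3%) had both signs, against 49.3% of all such genes. All probe sets were below 0 in 6 members (17.0% of all such genes) and above 0 in 4 (33.7%). The pooled SD between probe sets of a member was 0.67 over 24 genes and 0.42 over 23 without Tpx2. Over all 69 measured member probe sets the median was -0.11, against 0.07 for all measured probe sets, and 41 (59.4%) were below 0, against 43.7%. At least 2-fold lower were 4 of them, 2 of Foxm1 and 2 of Tpx2 (4.50% of all measured probe sets), and none was 2-fold higher (3.72%). In the 9 members with both a measured probe set marked as prone to cross-hybridise (suffix _x_at) and a measured one without a suffix, the former had the higher ratio in 7, by a median of 0.36. Over 605 such genes it had the higher ratio in 59.2%, by a median of 0.09.

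**Figure D5:**
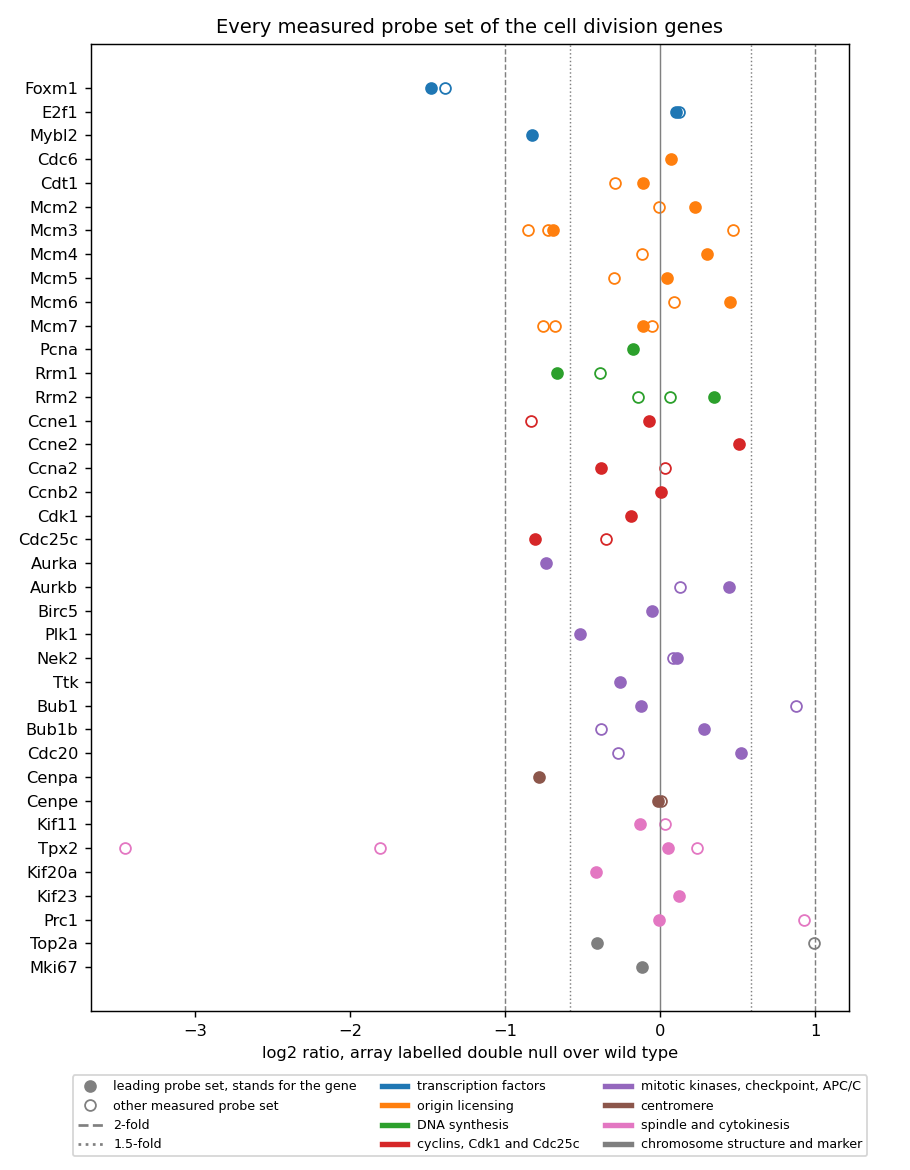
Log2 ratio of the array labelled double null over wild type for every measured probe set of the 38 measured members, with the leading probe set filled, the others open, and colours by role. Dashed lines mark 2-fold and dotted lines 1.5-fold. Both Foxm1 points lie left of the 2-fold line, and the 4 Tpx2 points spread from -3.45 to 0.24.

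Other genes of the cycle were read from 3 further lists. Over all measured genes, 4.22% were 2-fold lower, 3.55% were 2-fold higher and 43.5% lay below 0. Of 46 measured replication genes outside the members, 1 passed 2-fold on the lower side and 1 on the higher side, with a median of 0.00 and 23 below 0. Fen1, the flap endonuclease, had 101902 and 10645 in a probe set prone to cross-hybridise, and its other measured probe set had a log2 ratio of -0.63. Dck, deoxycytidine kinase, was 2.19-fold higher (15824 and 34675), and Lig1, the replicative ligase, had 4092 and 2335 (-0.81). Of 62 measured mitosis genes 3 passed it on the lower side and 1 on the higher side, with a median of -0.10 and 35 below 0. Cenpi, an inner kinetochore subunit, was 3.36-fold lower (1392 and 415), Pkmyt1, a kinase that inhibits Cdk1, 2.49-fold lower (1095 and 440) and Zw10 2.11-fold lower (5033 and 2383). Cenpi and Pkmyt1 reached the level of a measured gene in wild type only, so nothing is read from their part in the count. Pttg1, securin, had 7347 and 25703, or 3.50-fold higher, with a median of 0.35 in its other 2 probe sets.

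Of 38 measured genes of G1 control and cell cycle exit 2 were at least 2-fold lower and none 2-fold higher, with a median of 0.12 and 15 below 0. E2f5, an E2F that works with p130, had 54380 and 2170, but -0.32 in its other measured probe set. Lin52, a MuvB subunit, was 3.52-fold lower (1089 and 309), with -1.42 in its other probe set, and Lin9, a further subunit, had 699 and 364 (-0.94). The leading probe sets of Lin52 and Lin9 reached the level of a measured gene in wild type only. Lin52 was near the floor on the other array.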

How the data were processed

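The authors deposited 1 linear intensity per probe set and array, made with MAS5 per the submitters' processing notes; its version and any genome build are not given in the sources used here. Labelled RNA came from 6 µg of total RNA, per the labels' protocols. Each array listed 45101 probe sets, 64 of them controls, which were left out of gene results. Both had a trimmed mean (2% off either end) of 1500.01. Gene names came from the platform annotation, and 34741 of the 34945 probe sets with 1 gene matched a gene of the RefSeq table (GRCm38.p6).

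Each array was scaled on the median of the probe sets in the upper part of both arrays (from the 50th percentile, factors 0.974 and 1.03). The floor was the 40th percentile of scaled values and the level for a measured gene the 60th. A fold with 1 array under the floor is a lower bound, written "at least". Differences of log2 signals computed from the deposited intensities are described by size, because 1 array per genotype allows no test. The number of arrays limits the precision. All members are named. Of each further list those past 2-fold are named, or the 3 of largest absolute ratio where fewer pass. The members, lists and rules were chosen with earlier results of these data known. Alternatives changed the scaling, the floor, the filter, the probe set that stands for a gene and the fold. The steps were tested on simulated data. Analyses used Python 3.11.15, numpy 2.4.6, pandas 2.3.3 and matplotlib 3.10.9.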

Additional observations from a re-analysis of the deposited data

How the results depend on the processing

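No paired analysis was possible because each genotype has 1 array, and no array could be left out for the same reason. Equalising the median signal of the reference genes moved the median of all genes to 0.73 and gave 0 members at least 2-fold lower (1.05% of all genes) and 4 higher (27.1%), 1 at least 1.5-fold lower (2.13%) and 18 higher (63.0%), 7 below 0 (8.63%), a members' median of 0.55, Foxm1 at -0.84, and medians of 0.65 for other replication, 0.54 for other mitosis and 0.76 for G1 control genes. Setting their median ratio to 0 gave medians of -0.24 for the members and -0.15, -0.25 and -0.030 for those lists. The deposited scaling gave -0.077 for other replication and -0.17 for other mitosis genes. The mean over probe sets gave 2 members at least 2-fold lower (Foxm1 and Tpx2, against 450 of all 11248 genes) and 0.030 for G1 control genes. Probe sets without suffixes gave 1 member at least 1.5-fold higher, Top2a, against 13.8% of all genes. The filter at the 75th percentile gave 0.072 for other mitosis genes, and brightness centring, chosen after seeing the data, -0.16 for them and 0.022 for G1 control genes. The probe set with the highest signal on either array, also chosen after seeing the data, gave 2 at least 2-fold lower, again Foxm1 and Tpx2 (4.52% of all genes). The 1.5-fold rule gave 7 members lower in place of 1. The deposited scaling and those on reference genes multiply each array by a constant factor, so they moved all genes above the floor alike. The causes of the other changes were not tested. Relative to all genes, the members' median was lower under all 14 alternatives, by 0.13 to 0.18. Many of these could hardly change that sign. A constant factor moves members and all genes alike, and the changes of floor left the members' median at -0.09. All of them read the same arrays again, so they are not independent support. Of 505 values of single members besides Foxm1, 460 moved by less than the SD between probe sets, and 45 by more. Equalising the reference genes' median signal moved all of these members together, each by more than that SD. Tpx2 went from 0.05 to -1.24 with the mean over probe sets and to -3.45 with the probe set of highest signal. Foxm1 kept its sign. The other measured probe set of Foxm1, a further choice of that kind, gave -1.39.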

Other observations

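Several centromere and kinetochore genes of the mitosis list, named after their values were seen, were lower, and others were higher. Of the whole list 35 of 62 lay below 0, against 43.5% of all measured genes. Lower were Cenpn (2378 and 1236, although its other measured probe set was higher, at 0.35), Cenpk (1780 and 966), Knl1 (1223 and 709) and Spc24 (2236 and 1458). Cenpf, Cenpm, Cenpp, Ndc80, Spc25, Sgo2a and Zwilch were also lower, by less than 1.5-fold. Higher were Oip5, with 498 and 904, Kntc1, a partner of Zw10, with 796 and 1266, and Nuf2, with 2786 and 2998. Oip5, a loading factor of Cenpa, reached the level of a measured gene only on the array labelled double null. Bub3 and Mad2l1 were also higher, by less than 1.5-fold. Incenp (8353 and 10311), Cdca8 (10051 and 11141) and Sgo1 (1078 and 1250) were higher in their leading probe sets and lower in their others, whose median or single log2 ratios were -1.35, -0.25 and -0.27.

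Foxm1 and B-Myb act through the MuvB core, whose genes, also named after their values were seen, went both ways. Lin52 and Lin9 were lower, in leading probe sets that reached the level of a measured gene in wild type only. Lin54, the DNA-binding subunit of the core, had 887 and 1045, and Rbbp4 had 44619 and 56008. Lin37 was not measured, with 656 and 391. Regulators of Cdk1 besides Cdc25c and Pkmyt1 included Cdc25b, with 1561 and 836, and Wee1, with 4756 and 6883.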
